A study of Mus musculus with 17 samples.

Results

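The motile cilia genes described here were 69 of the 21887 protein-coding genes that RefSeq annotates on mouse chromosomes 1 to 19, X and Y in build GRCm38.p6 (mm10). They were chosen by a rule on symbols, which was set with earlier results of these data known: the dynein heavy chain genes (Dnah with a number), the assembly factor genes (Dnaaf), the cilia and flagella associated protein genes (Cfap with a number), the radial spoke head genes (Rsph with a number), Spag6, Spag6l, Spag16, Spag17, Hydin and Foxj1. The rule also named the symbol Dnai, which no gene of the table carries. The intermediate chain genes stand there as Dnaic1 and Dnaic2 and were looked at separately, after the rule had been applied.

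The measured mark was H3K27ac, acetylation of lysine 27 on histone H3, which is found at active promoters and enhancers. It was mapped in hypothalamus dissected from mice by CUT&Tag, in which an antibody brings the Tn5 transposase to marked chromatin, in 3 bulk samples titled as biological replicates. The labels used here state no strain, sex, age or treatment of the animals. The 3 samples share 1 list of 183678 peaks, which carries neither counts of reads nor values for each replicate. Every value below is therefore 1 measurement without a spread between animals, and its depth is unknown. The series also holds 7 DNA and 7 RNA sub-libraries of Paired-Tag, an assay of single nuclei, which were not analysed here.

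Motile cilia are hair-like organelles that beat, and in the brain they line the ventricles on ependymal cells, where they move cerebrospinal fluid. Their core, the axoneme, is a ring of doublet microtubules around a central pair. Outer and inner dynein arms slide the doublets past each other, radial spokes and the central pair apparatus regulate the arms, and assembly factors fold and join the dynein subunits in the cytoplasm before they enter the cilium. Foxj1 and the RFX factors are the transcription factors best known for switching on these genes. Airway cells and sperm use many of the same genes, so the symbols by themselves name a structure and not a cell type.

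Promoter sequences are shown first because the members shared one short motif more often than genes at large. RFX proteins bind the X-box, an inverted pair of sites of the form GTTGCC, with its opposite strand GGCAAC. The RefSeq promoter table of GRCm38.p6 (250 bases before to 50 after a listed start) held 57 of the 69 members. It held no entry for Cfap53, Cfap54, Cfap65, Cfap73, Cfap97, Cfap157, Cfap299, Dnaaf1, Dnah3, Foxj1, Rsph1 and Rsph4a. Windows of 60 bases, all upstream of the listed start, are printed 5′ to 3′ on the strand of the gene, with the matches in capitals. Cfap298 and Cfap20dc are shown because they hold the inverted pair (letters GTTNCC, then 1 to 3 bases, then GGNAAC) and had a peak at the start, the former at chr16:90935005-90935064 and chr16:90934886-90934945 on the minus strand, the latter at chr14:8666360-8666419 on the minus strand. Dnaaf6, at chr1:31222757-31222816 on the plus strand, holds the pair but had no peak at the start.
Cfap298 (first window): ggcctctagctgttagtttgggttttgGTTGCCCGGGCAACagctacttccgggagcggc
Cfap298 (second window): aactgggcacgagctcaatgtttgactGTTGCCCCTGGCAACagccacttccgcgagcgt
Cfap20dc: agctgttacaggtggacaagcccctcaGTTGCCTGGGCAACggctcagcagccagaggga
Dnaaf6: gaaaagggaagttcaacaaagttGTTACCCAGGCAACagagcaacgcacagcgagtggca

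The next set shows single matches to GTTGCC and closely spaced ones. Spag16 (chr1:69826832-69826891, plus strand) holds sites on opposite strands that stand back to back, and Cfap161 (chr7:83794873-83794932, minus strand) holds 3 on the same strand. The site of Hydin (chr8:110266917-110266976, plus strand) is close to a listed start at which no peak lay. The triplicate genes Dnah7a (chr1:53706952-53707011, minus strand), Dnah7b (chr1:46066663-46066722, plus strand) and Dnah7c (chr1:46425272-46425331, plus strand) each hold 1 exact GTTGCC, far upstream and in similar surroundings. Nearer the listed start, all of them also read gttgcttagcaac. That run is an inverted repeat whose arms differ from GTTGCC in the last letter, so the search did not count it.
Spag16: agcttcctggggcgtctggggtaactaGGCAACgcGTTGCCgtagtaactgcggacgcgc
Cfap161: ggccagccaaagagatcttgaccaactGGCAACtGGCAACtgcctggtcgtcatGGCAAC
Hydin: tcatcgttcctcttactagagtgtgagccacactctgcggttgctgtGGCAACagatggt
Dnah7a: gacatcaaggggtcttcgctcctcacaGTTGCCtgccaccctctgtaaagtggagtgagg
Dnah7b: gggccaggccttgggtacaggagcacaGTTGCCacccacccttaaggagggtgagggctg
Dnah7c: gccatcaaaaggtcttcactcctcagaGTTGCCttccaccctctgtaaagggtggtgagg

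GTTGCC on either strand was found in the 300-base promoter of 25 of the 57 members (43.9%, Wilson 95% interval 31.8 to 56.7), against 14.3% of the 17492 protein-coding genes with an entry. Its longer form GTTGCCA, a subset of the same matches, was found in 13 members (22.8%, 13.8 to 35.2) against 4.80% of genes. The inverted pair, in the exact letters given above, was found in 4 members, Cfap20dc, Cfap298, Dnaaf6 and Dnaaf6b (7.02%, 2.76 to 16.7), against 0.835% of genes. Inverted runs with another last letter in an arm were not searched, in members or in other genes. Hydin (gttgctgtGGCAAC) and Dnah6 (gttgctaagcaac) hold such runs, so the count is one of exact matches only. Forkhead motifs, the class that Foxj1 binds, were rare in members and in genes at large: TGTTTAC occurred in 3 members (5.26% against 3.45%) and TGTTTGT in 2 (3.51% against 6.70%). CCAAT, a box of many promoters unrelated to cilia, occurred in 23 members (40.4%) against 42.3% of genes. A match is a run of letters, not a bound site, and these intervals cover counting over genes, some of which are copies of each other.

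The promoter window runs from 250 bases before a listed start to 50 after it, so every site in it is near the start. The centre of the nearest GTTGCC lay between positions −217 and 36 from a listed start of the members (negative is upstream), with a median of −17, against −79 over the 2510 protein-coding genes that hold the site. It lay within 150 bases, a limit chosen after the positions were seen, in 22 of the 25 members (88.0%) and in 71.1% of those genes. The members beyond it were Dnah7a, Dnah7b and Dnah7c. Their promoters were related but not identical: an alignment of the 300 bases gave 79.6% identity for Dnah7a and Dnah7c, 67.4% for Dnah7a and Dnah7b, and 60.1% for Dnah7b and Dnah7c. More than 1 site was held by 7 members, namely Cfap20dc, Cfap44, Cfap74, Cfap161, Cfap298, Dnah10 and Spag16. The same count was not made over all genes, so whether 7 is many or few cannot be said.

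H3K27ac marked the start of most motile cilia genes, at an ordinary strength for a marked promoter. A peak was counted at the start when it overlapped 1 kb either side of a listed start, or of either end of the gene span for the 12 members with no listed start. It was there for 56 of 69 members (81.2%, Wilson 95% interval 70.4 to 88.6), against a background of 68.7% of all protein-coding genes. Among members with a listed start it was 45 of 57 (78.9%, 66.7 to 87.5) against 68.3%, and among those with none it was 11 of 12 against 70.4%. With either end of the span used for every gene, the members again numbered 56, against 69.2%. A listed start can be 1 of several: when the upstream end of the span was accepted as well, a measure added after the values were seen, 48 of 57 members had a peak (84.2%, 72.6 to 91.5) against 69.3%. The members are long genes, and a start peak was more common in long genes, so the counts were also set beside genes of the same length, a comparison added after the values were seen. With all protein-coding genes ranked by length into 10 equal groups (deciles), 28 of the 33 members in deciles 1 to 8 had a start peak (84.8%, 69.1 to 93.3), against 64.1% of genes there. In decile 9 it was 14 of 14, against 85.4%. In the longest decile it was 14 of 22 (63.6%, 43.0 to 80.3), against 89.4%, and 16 of 22 against 91.3% with the upstream end accepted. The excess of marked starts over all genes was thus turned round among the longest members. In bulk tissue, a mark in fewer cells and a weaker mark per cell cannot be told apart.

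The fold enrichment of these start peaks, the ratio over background that the authors' peak caller gave, had a median of 9.27 over the 56 members (range 2.60 to 18.5, quartiles 6.88 and 11.7). Over the 15042 protein-coding genes with such a peak the median was 8.84, with quartiles of 5.73 and 12.1. The members thus spread over the range of all genes: 29 were at or above the all-gene median, 11 were under its lower quartile and 9 were at or above its upper quartile. The order of the medians turned with the definition. It was 8.67 against 8.94 with windows of 500 bp, and 8.52 against 8.84 without the 9 genes that have a copy among the members (Dnah7a to c, Rsph3a and b, Spag6 and Spag6l, Dnaaf6 and Dnaaf6b). The start peaks were 1059.5 bp wide in the median against 1264 bp for all genes, and their summits lay a median of 110 bp from the listed start. Of these peaks, 17 also reached the start or end of another annotated gene, which was protein-coding for 8: Dnaaf1, Dnaaf5, Dnah10, Cfap52, Cfap53, Cfap57, Cfap61 and Cfap99.

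**Figure D1:**
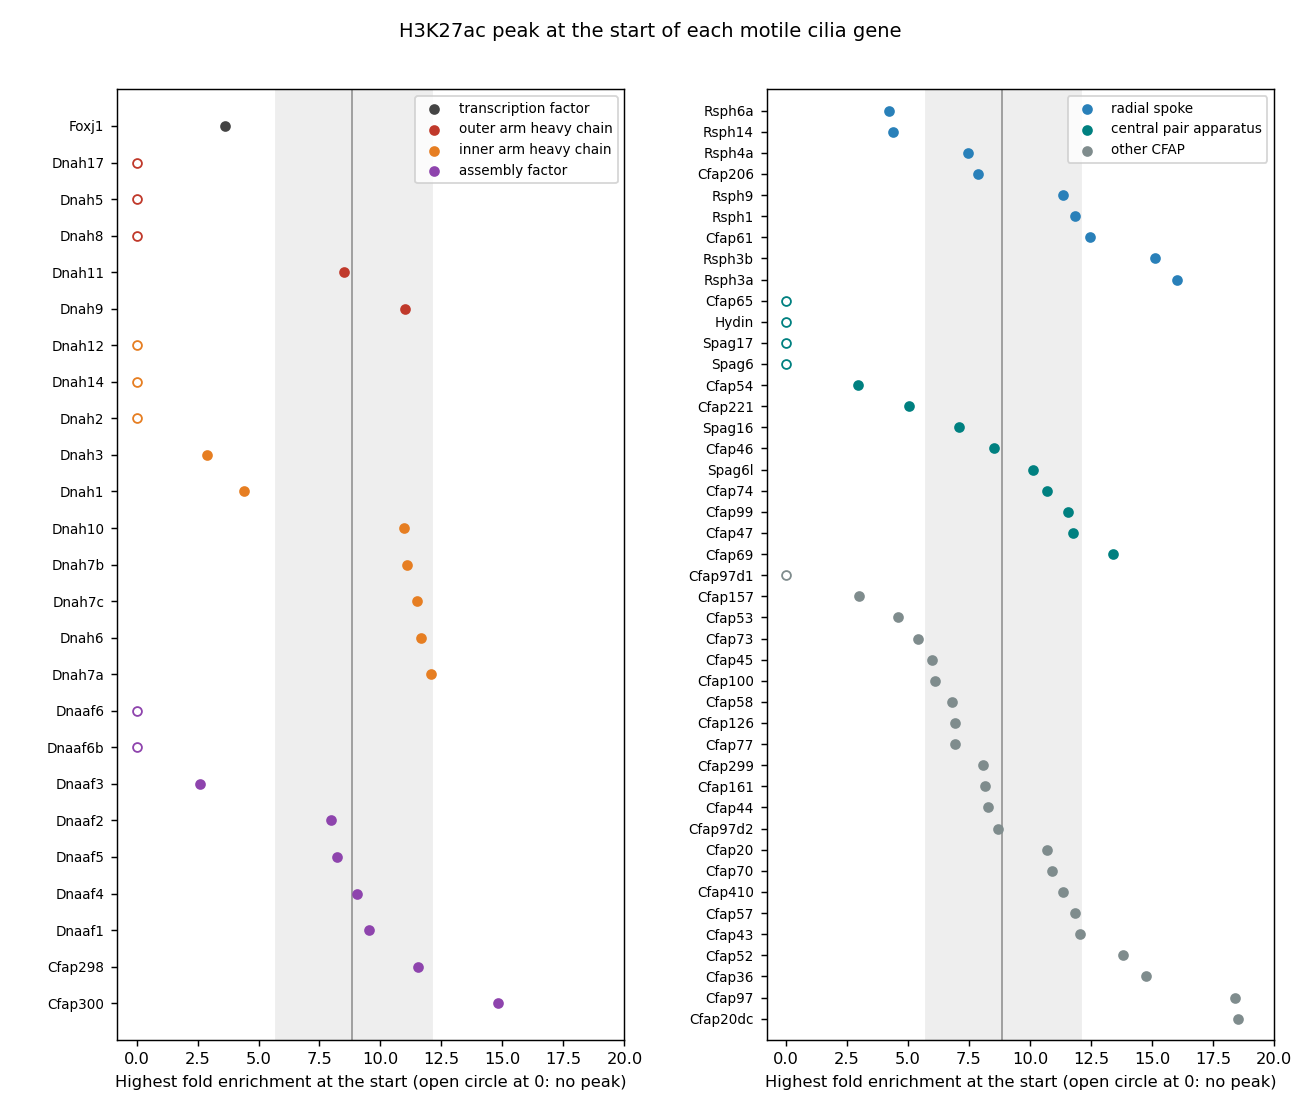
Highest fold enrichment of an H3K27ac peak within 1 kb of the start (of a span end where no start is listed) for each of the 69 motile cilia genes, coloured by role, with 1 point per gene from the 1 peak list. Open circles at 0 are the 13 genes with no such peak, the grey line is the median of all protein-coding genes with a start peak (8.84) and the grey band their quartiles (5.73 to 12.1); the members lie on both sides of the line, from 2.60 for Dnaaf3 to 18.5 for Cfap20dc.

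Foxj1, the forkhead factor that drives the motile cilia programme, lay in a region with a weak but broad mark. Its span at chr11:116330704-116335499 and 10 kb either side held 6 peaks, which covered 19.7% of that region, against a median of 7.50% over all protein-coding genes. At the ends of the span, 3 peaks had folds of 3.63, 3.02 and 2.83, and the strongest of them stood at the 9.15th percentile of all start folds. The highest fold in the region, 3.64 at chr11:116342281-116343420, lay outside the gene. The Foxj1 region was therefore well covered by peaks and low in fold at once. Of its 6 peaks, 2 overlapped the gene itself and 2 lay in the span of another protein-coding gene. Genes in the length decile of Foxj1 had a median coverage of 9.61%.

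The 5 outer arm heavy chain genes all belong to the longest decile. A peak lay at the listed start of 2 of them, or of 4 with the upstream end accepted, against 89.4% and 91.3% of genes of that length. Dnah9 had a fold of 11.0 there and Dnah11 a fold of 8.52. Both encode heavy chains of airway cilia, and Dnah11 also serves the cilia of the embryonic node. Their regions held 4 and 3 peaks, which covered 0.671% and 0.453% of them, and the highest fold away from the start was 2.89 in Dnah9 and 3.90 in Dnah11. Dnah5, which encodes the other heavy chain of the arm in airway cilia, had no peak within 1 kb of its listed start. Its strongest peak, with a fold of 16.7 at chr15:28154806-28155665, lay 48.8 kb upstream of that start and at the upstream end of the annotated span. It was 1 of 10 peaks covering 1.84% of the region, and the next strongest had a fold of 7.73, with its summit at −21671 bp from the listed start.

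Dnah8 and Dnah17 encode the outer arm heavy chains known from the sperm tail, and neither had a peak at its listed start. Dnah8 had 9 peaks, all within the gene, and the strongest (8.31) lay at chr17:30658017-30658713, 31435 bp downstream of the listed start. Dnah17 had 23 peaks, the most of this group, covering 15.02% of its region with a highest fold of 6.80 at chr11:118042301-118043711. A faint peak at the upstream end of Dnah17 had a fold of 1.96. The genes of this group thus differed in where the mark lay: at the listed start in Dnah9 and Dnah11, at the far upstream end in Dnah5, and within the gene in Dnah8 and Dnah17.

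Of the 10 inner arm heavy chain genes, 7 had a peak at the start (70.0%, against 68.7% of all genes), with a median fold of 11.1 (2.89 to 12.1). The longest decile held 9 of them, 6 with a start peak (66.7%), against 89.4% of genes of that length. The strongest were Dnah7a at 12.1 (chr1:53705940-53707322), Dnah6 at 11.7 (chr6:73221349-73222480) and Dnah7c at 11.5 (chr1:46425024-46426068), followed by Dnah7b at 11.1 and Dnah10 at 11.0. Dnah6 and the Dnah7 genes encode single-headed inner arm dyneins. Dnah7a, Dnah7b and Dnah7c are copies of each other on chromosome 1, and reads may be shared between them. Each had 2 peaks over more than 300 kb, and coverage was 0.493%, 0.420% and 0.405%. Dnah6 had 4 peaks and a coverage of 1.12%. Dnah10 and Dnah2 encode the heavy chains of the double-headed inner dynein. The Dnah10 peak also reached the start of Atp6v0a2, a gene of the vacuolar proton pump, and 8 peaks covered 5.79% of its region. Dnah2 had no peak at its listed start but had 18 peaks, the most of this group, covering 10.3%, with a highest fold of 6.01 at chr11:69526224-69528200, 21701 bp downstream.

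The weaker starts in this group were those of Dnah1 (4.41), which serves sperm motility, and Dnah3 (2.89, at a span end). In both regions the highest peak belonged to a neighbour: 13.8 at the start of Bap1 and Phf7 beside Dnah1, and 10.3 at Tmem159 beside Dnah3. Dnah12 had no peak in 201166 bp of span or its flanks, and the nearest was 21355 bp from the gene. Dnah14 had 8 peaks but none at the start: 6 inside, all 165975 bp or more downstream of the listed start, with a highest fold of 5.67, and 2 in another gene beyond its end. None of the 10 inner arm genes exceeded the median number of peaks of genes in its own decile of length, whereas 7 exceeded their decile's median of the highest fold. Dnah1 and Dnah3 were among the 7 only through the neighbours' peaks. Peaks at or in these genes reached 4.41 and 6.90, under their decile medians of 9.93 and 9.53. Dnah10 was among the 7 through the peak that also reached Atp6v0a2.

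Assembly factor genes were shorter, and 7 of 9 had a peak at the start, with a median fold of 9.02. That share was 77.8% (Wilson interval 45.3 to 93.7), against 68.7% of all genes. All 9 lie in length deciles 1 to 8, where 64.1% of genes had a start peak. Both background shares lie inside the interval, so 9 genes are too few to tell the share of this group from them. Cfap300 stood highest at 14.8 (chr9:8042198-8043235), with 2 peaks and 3.74% of the region covered. Cfap298 followed at 11.5 (chr16:90934166-90935335), with 6 peaks and 10.1% covered. Dnaaf1 had 9.51 at a span end (chr8:119574226-119575542), in a peak that also reached Hsdl1, with 3 peaks and 9.85% covered. The others were Dnaaf4 at 9.02, Dnaaf5 at 8.23, Dnaaf2 at 7.95 and Dnaaf3 at 2.60. Cfap300, Cfap298 and these Dnaaf genes are all genes in which mutations cause primary ciliary dyskinesia, the human disease of immotile cilia. Dnaaf5 had the most peaks of this group, 10, which covered 10.6%. Dnaaf3 had 9, which covered 17.3%, and its highest fold (5.91, chr7:4526213-4527322) lay 5905 bp downstream of the listed start and not at it. Dnaaf6 and its relative Dnaaf6b on the X chromosome had no peak at the start. The 1 peak near Dnaaf6 had a fold of 3.90 and lay 9457 bp beyond the gene, and the peak nearest to Dnaaf6b was 64267 bp away.

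All 9 radial spoke genes had a peak at the start (median fold 11.3, range 4.23 to 16.0), against the same background of 68.7%. Rsph3a and Rsph3b, copies of a spoke stalk protein gene between which reads may be shared, had folds of 16.0 (chr17:7945317-7946403) and 15.1 (chr17:6947910-6948980), with 3 and 2 peaks. Their coverage was 3.20% and 2.50%. Their 300-base promoters shared 47.0% identity, and GTTGCC was found in that of Rsph3b only. Cfap61, a protein at the spoke base, had 12.5 (chr2:145934170-145935081) in a peak shared with Crnkl1. The spoke head genes needed in airway cilia followed, with Rsph1 at 11.8, Rsph9 at 11.3 and Rsph4a at 7.44. Cfap206, another spoke base gene, had 7.87. Rsph6a, the sperm counterpart of Rsph4a, had 4.23, and Rsph14 had 4.37.

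Rsph14 and Cfap61 had the most peaks of all members, 27 each. They covered 19.7% of the Rsph14 region and 6.80% of the Cfap61 region. In Rsph14, 18 of the 27 peaks lay in the span of another protein-coding gene, and the highest, 8.84, lay at Rab36. In Cfap61, 24 peaks lay inside the gene away from the start, with folds up to 9.71 at 233649 bp downstream. The regions of Rsph3b (2 peaks) and Rsph4a (1 peak) stood at the other end of the group.

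Central pair genes had a peak at the start in 9 of 13 (69.2%), close to the 68.7% of all genes, with a median fold of 10.1 (2.93 to 13.4). Cfap69 had 13.4 (chr5:5663705-5664491), Cfap47 had 11.8 (chrX:79517027-79517651) and Cfap99 had 11.6 at the start. Cfap47 was an extreme case of a start-only mark: that peak was the 1 peak in 250794 bp of span and its flanks, and it covered 0.231%. Cfap69 had 5 peaks and 2.19% covered, and Cfap99 had 9 peaks and 14.0% covered, 5 of them in another protein-coding gene. The start peak of Cfap99 reached Zfyve28, and its highest peak, 13.1, lay at Rnf4 (chr5:34335604-34337178). Cfap74, with 10.7 at its start (chr4:155408589-155409821), had the most peaks, 16, covering 11.5%. Cfap46 had 8.52, Spag16 7.08, Cfap221 5.06 and Cfap54 2.93. Of these, Cfap46, Cfap54, Cfap74 and Cfap221 encode parts of one projection of the central pair. In Cfap54 the end peak was outdone by a peak inside the gene, 11.8 at chr10:93051087-93051746.

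Hydin, whose loss causes hydrocephalus in mice and which encodes a central pair protein, had no peak within 1 kb of its listed start. Its region held 15 peaks covering 2.80%. Inside the gene lay 13 of them, from 48904 to 218868 bp downstream of the start, and the strongest had folds of 7.67 at chr8:110464949-110466039 and 7.66 at chr8:110450071-110450774. The highest fold of the region, 12.4 at chr8:110618350-110619339, lay beyond the gene at Vac14. Spag17, a large central pair protein gene, had no peak in its region, and the nearest was 18545 bp away. Spag6 had none at its listed start but had one of 9.78 at the upstream end of its span (chr2:18693984-18694879), 4.88 kb away, whereas its copy Spag6l had 10.1 at its start and no other peak. Cfap65 had 2 peaks, both in another gene's span, with a highest fold of 3.47 at Cryba2.

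Among the other 22 CFAP genes, 21 had a start peak (95.5%, against 68.7% of all genes), with a median fold of 8.27. Many of them encode proteins on or inside the doublet microtubules. The strongest start of all members was that of Cfap20dc at 18.5 (chr14:8665705-8666790), the 98.1th percentile of all genes. It had 15 peaks, the most of this group, and 2.97% covered. Cfap97 had 18.4 at a span end (chr8:46162969-46164101), with 6 peaks and 6.78% covered. Cfap36 had 14.8 (chr11:29246705-29248048), with 3 peaks and 3.98% covered. Cfap52, a protein of the doublet lumen, had 13.8, but the summit of that peak lay at −945 bp from the start and the peak reached Stx8. That peak lay outside the span of Cfap52. Another peak, inside the span with its summit 105 bp downstream of the listed start, had a fold of 2.67. Cfap20, which encodes a protein of the inner junction of the doublet, had 10.7 and 9 peaks, covering 14.5%. The genes Cfap43 (12.1), Cfap57 (11.8) and Cfap70 (10.9), which encode proteins that anchor or accompany dynein arms, were above the all-gene median, and Cfap44 (8.27), the partner of Cfap43, was below it. The lowest were Cfap157 at 2.99, Cfap53 at 4.61 and Cfap73 at 5.41, all of them genes with no listed start. Cfap97d1 was without a start peak, and its 3 peaks all lay in other genes, with 8.78 at Dusp3.

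The regions of the members were read as a whole, neighbours included. They held 454 peaks, 0.247% of the list, and none of them was shared between members. Their median fold was 3.21 against 3.18 for all peaks, and their median width was 599 bp against 557 bp. A peak was present in the region of 66 of 69 members, against 79.2% of all genes. The members are longer, and few long genes lacked a peak. In the longest decile 2 of 22 members had none, against 2.79% of genes, and in decile 9 it was 0 of 14, against 5.30%. At the start lay 67 peaks (14.8%, median fold 8.27), inside the span but away from the start 256 (56.4%, 3.11), and in the flanks 131 (28.9%, 3.04). Over all protein-coding genes the shares were 11.1%, 68.0% and 21.0%. The highest peak was the start peak in 35 of the 66 members with a peak (53.0%, against 58.3% of all genes with a peak in the region). It lay outside the span in 21 (31.8% against 28.9%), and it reached the start or end of another protein-coding gene in 23 (34.8% against 28.5%), as with 17.5 at Slc35a1 beside Cfap206 and 15.6 at Vwc2l beside Spag16. Of the 454 peaks, 112 (24.7%) overlapped another protein-coding gene, against 15.6% over the regions of all genes.

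Long motile cilia genes had few peaks for their length. The members had a median span of 65517 bp against 17169 bp for all protein-coding genes, but a median of 5 peaks per region (0 to 27) against 4. Peaks covered a median of 3.88% of a region against 7.50%, while the highest fold was 10.5 against 9.47 in the median. Set against the median of genes in their own decile of length, 48 members had fewer peaks and 20 had more. For the highest fold it was 27 lower and 39 higher. The pattern was most marked in the longest decile, 2189 genes of 108526 bp or more, to which 22 members belong. Their median was 8 peaks against 28, and each of the 22 was under the decile's median. Coverage was 1.43% against 7.22%, and the highest fold was 11.3 against 9.53. In the next decile, 14 members had a median of 5.5 peaks against 11.

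**Figure D2:**
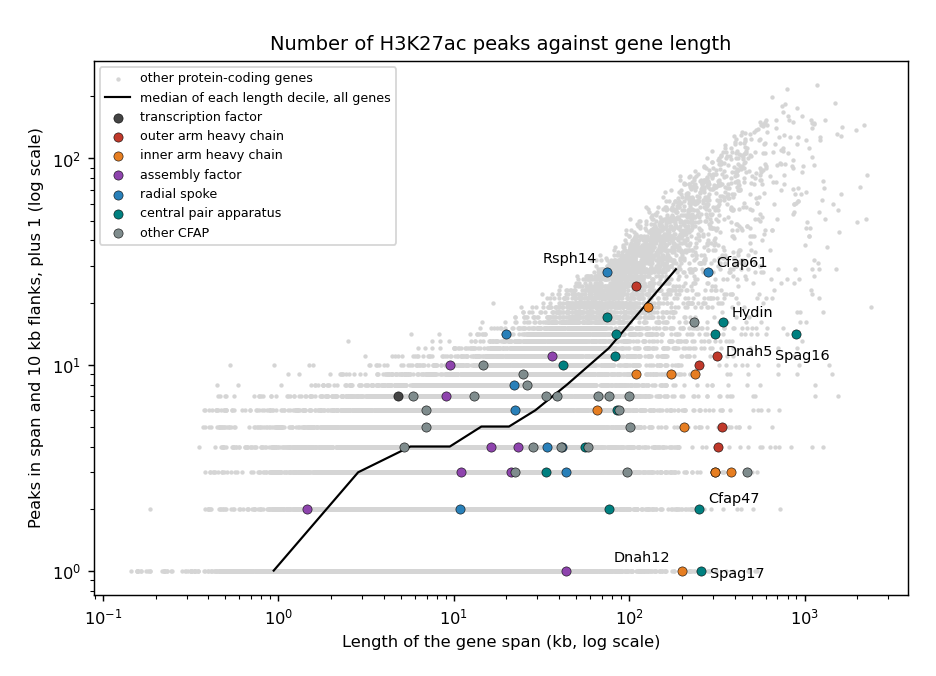
Number of H3K27ac peaks in the span and 10 kb flanks, plus 1, against the length of the gene span in kb, both on log scales, with 1 point per protein-coding gene (grey) or motile cilia gene (coloured by role). The black line joins the medians of the 10 length deciles; the 22 members of the longest decile each hold 27 peaks or fewer, against a decile median of 28.

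Fewer of the long members had a marked start (14 of 22, against 89.4% of the decile), and peaks were also few among those that had one. These 14 members had a median of 4 peaks in all, against 30 for the 1956 genes of that decile with one. When only start folds at or above the all-gene median were kept, 9 members had a median of 4 peaks against 24 for 923 genes. At most 4 peaks were found in 10 of the 22 long members against 13.0% of the decile, in 8 of the 14 with a start peak against 8.59%, and in 6 of the 9 with a strong start against 10.1%. The limit of 4 peaks and these subsets were chosen after the values were seen. The long members were also longer than their decile, with a median of 269092 bp against 184899 bp, and the median start fold was 11.0 against 8.59. The 8 with a start peak and at most 4 peaks were Cfap47, Cfap299, Dnah6, Dnah7a, Dnah7b, Dnah7c, Dnah9 and Dnah11. Dnah7a, Dnah7b and Dnah7c count as 3 of them although they are copies.

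Not every long member followed this form. Cfap61 (27 peaks), Dnah17 (23), Dnah2 (18), Cfap20dc (15), Hydin (15), Spag16 (13) and Cfap54 (13) carried peaks along the gene. Cfap299, at 472916 bp, had 2 peaks, with a fold of 8.09 at a span end. Spag16, the longest member at 898261 bp, had 13, and they covered 0.802%. Dnah12 and Spag17 had none, whereas 2.79% of genes in the decile had none. Whether the interior peaks act on the member or on another gene was not tested.

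**Figure D3:**
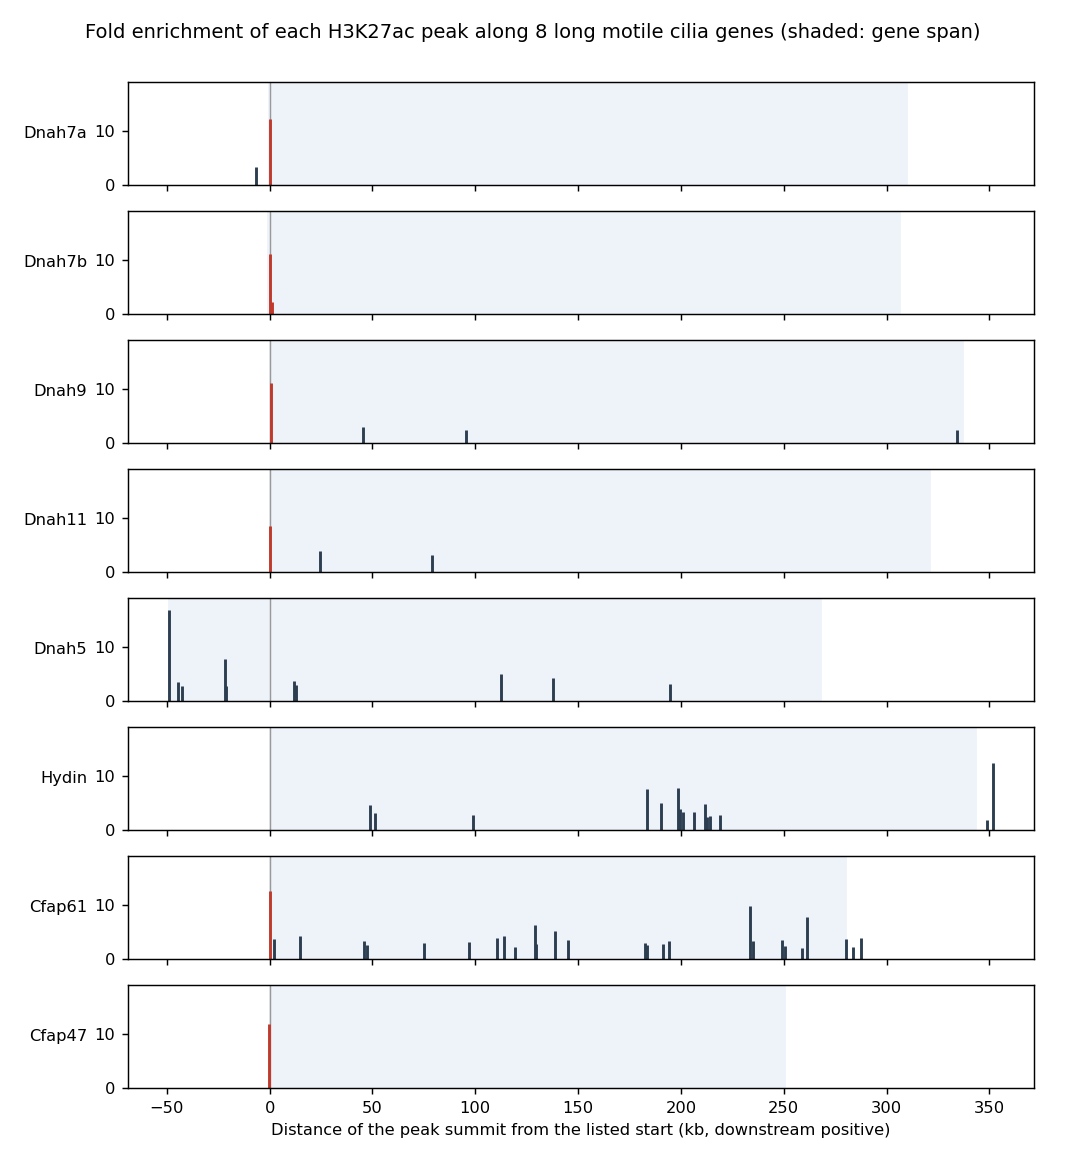
Fold enrichment of each H3K27ac peak (vertical axis, height of the line) by the distance of its summit from the listed start in kb, downstream positive, for 8 long members chosen after their values were seen, with the gene span shaded and peaks at the start in red. Dnah7a, Dnah7b, Dnah9, Dnah11 and Cfap47 show 1 tall line at 0 and at most 3 low ones, Dnah5 its tallest line 48.8 kb upstream, and Hydin none at 0 and a group inside the gene, while Cfap61 is marked along its length.

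The exact letters GTTGCC and the mark at the start were then set beside each other. Of the 25 members with GTTGCC, 21 had a start peak, with a median fold of 10.1. Of the 32 without it, 24 had one, with a median of 11.2. Over all protein-coding genes the site went with a start peak in 72.8% (median fold 9.10) and its absence in 67.6% (9.05). The members with the site but no start peak were Dnaaf6, Dnaaf6b, Hydin and Spag6. The median fold of members with GTTGCC was thus not above that of members without it. Members without these exact letters can hold a near match, as Dnah6 does (gttgctaagcaac, start fold 11.7). The split therefore does not divide members by whether an RFX site is present. CpG content showed another side of these promoters. The ratio of observed to expected CpG had a median of 0.596 over the members and 0.610 over all promoters. Among genes with a start peak it was 0.607 for members against 0.764 for all, and among genes without one 0.450 against 0.169.

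Other genes of the pathway, from lists chosen with earlier results known, were marked at the start at least as often. Among regulators of multiciliated cells, 17 of 19 had a start peak (89.5%, against 68.7% of all genes), with a median fold of 7.40. E2f5 (16.4), Deup1 (15.2) and Ccno (11.5), which act in centriole amplification, had the highest folds, and Cdc20b and Trp73 had no start peak. The 6 RFX genes of that list were all marked, and other RFX genes were not looked at. Their folds ran from Rfx2 at 11.3 and Rfx3 at 9.92 through Rfx5 at 7.40, Rfx7 at 7.26 and Rfx1 at 6.66 to Rfx4 at 2.95. Mcidas (3.05) and Gmnc (4.26), which start the multiciliation programme, had low folds at their listed starts. Foxj1, which has no listed start, had 3.63 at 1 end of its span and 2.83 at the other. Mcidas also had a peak with a fold of 11.1 inside the gene away from the start, whereas no fold in the Foxj1 region exceeded 3.64. In the list drawn up as other axonemal genes, 48 of 53 had a start peak (90.6%, against the same 68.7%), with a median of 10.2. Nme7 (18.0), Wdr60 (17.3) and Ccdc113 (16.1) had the highest folds of the list as drawn up, and Nme9, Sntn, Spef1, Tekt2 and Tekt3 had no start peak. Intraflagellar transport and BBSome genes build and service primary as well as motile cilia. All 34 had a start peak, against the same 68.7%, with a median fold of 14.6. The highest were Kifap3 (23.4), Ift88 (20.6) and Ift57 (20.3). The intermediate chain genes Dnaic1 and Dnaic2 had folds of 6.46 and 6.41, with 22 and 9 peaks.

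Markers of cells that could carry the mark were read in the same way. Of 13 ependymal markers, 9 had a start peak (69.2%, against 68.7% of all genes), with a median fold of 4.65. Meig1 (13.9), Fam183b (10.4) and Dynlrb2 (8.74) were highest, but 6 of the 13 also stand in the axonemal list, and Foxj1 is a member. Mia, Sntn, Tm4sf1 and Tmem212 had no start peak, although Tmem212 had 10 peaks in its region and Sntn none. All 9 tanycyte markers had one (median 4.78), led by Dio2 at 10.1, Rax at 8.61 and Scn7a at 5.71. Of 10 choroid plexus markers 8 had one (median 3.62), led by Kl at 7.57, Clic6 at 5.67 and F5 at 3.97, while Kcne2 and Kcnj13 had none and Ttr, the most abundant of them in that tissue, had 3.04. Of 10 astrocyte markers 8 had one (median 4.92), led by Ntsr2 at 8.67, Mlc1 at 5.97 and Atp1b2 at 5.48, with none for Aqp4 and Slc1a2. Of 12 germ cell and sperm tail genes 2 had one, Odf2 at 8.44 and Spata18 at 2.12, and 10 had none, Akap3, Akap4 and Ldhc among them. Marker lists of ependyma, tanycytes, choroid plexus and astrocytes thus each held marked genes, with median folds of 3.62 to 4.92, below both the members' 9.27 and the 8.84 of all genes. The cells behind the members' peaks cannot be told apart in this bulk list.

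GTTGCC followed the cilia lists in part. It was found in 24 of 45 other axonemal genes (53.3%, Wilson 95% interval 39.1 to 67.1), 12 of 30 intraflagellar transport and BBSome genes (40.0%, 24.6 to 57.7) and 7 of 16 regulators (43.8%, 23.1 to 66.8), against 14.3% of all genes. Among markers it was found in 4 of 10 ependymal genes, 3 of 7 choroid plexus genes, 1 of 8 astrocyte genes, 0 of 7 tanycyte genes and 0 of 11 germ cell genes, numbers too small for a narrow interval. The comparison by list was added after the members' share was seen.

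**Figure D4:**
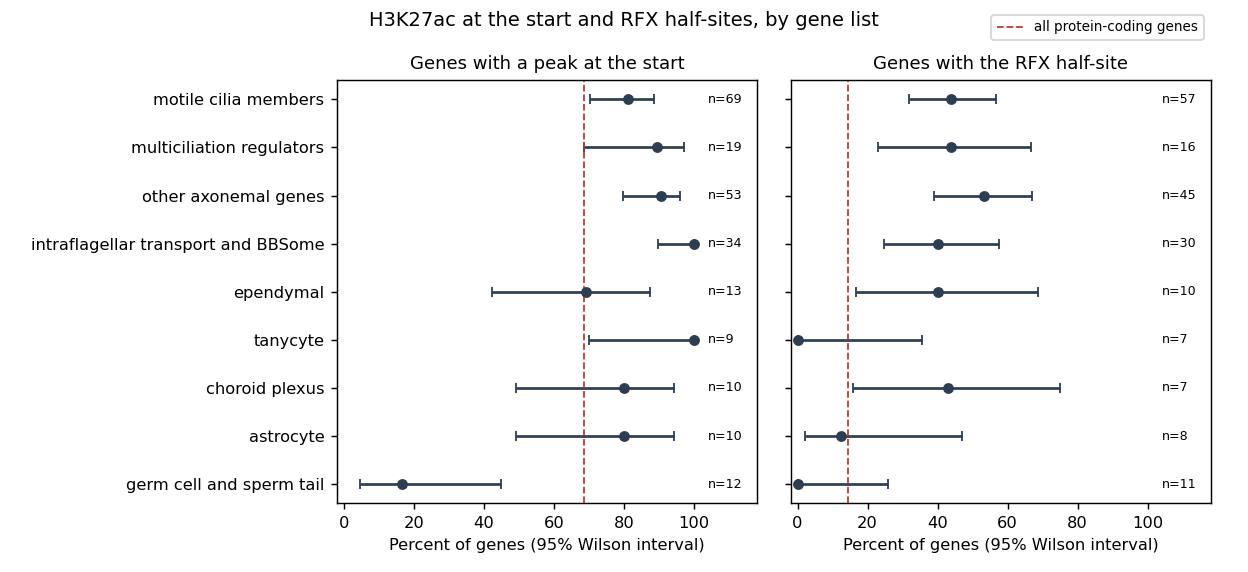
Percent of genes with an H3K27ac peak at the start (left) and with GTTGCC, the RFX half-site, in the 300-base promoter (right) for the motile cilia members and 8 other lists, with Wilson 95% intervals over genes, the number of genes beside each point, and dashed lines for all protein-coding genes (68.7% and 14.3%). On the left the members, the 3 other cilia lists and the tanycyte, choroid plexus and astrocyte markers lie right of the line, the ependymal markers at it (69.2%) and the germ cell list left of it; on the right the members and the other cilia lists lie between 40.0% and 53.3%, a range that also holds the ependymal (40.0%) and choroid plexus (42.9%) markers.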

How the data were processed

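H3K27ac peaks from 3 bulk CUT&Tag samples of mouse hypothalamus, grouped by their titles, were analysed. Paired-Tag data were not analysed here. Per the submitters' processing notes, the tools were UMI-tools 1.1.4, cutadapt 4.5, BWA 0.7.17, MACS2 (version not named) and STAR 2.7.10a, and the build was mm10. The caller's settings and background, and how replicates were combined, were not given in the sources used here. In the narrowPeak list deposited by the authors, which has no header, columns were read by the order of that format: a score, which was not used, the fold enrichment over background (a ratio), the −log10 of a q-value, and a summit for each peak. The fold deposited by the authors ranks peaks within this list only. Depth is unknown, and Wilson intervals cover counting over genes only.

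Genes came from RefSeq GRCm38.p6, with spans for 21887 protein-coding genes and 300-base promoters for 17492. A peak counted at the start with an overlap of 1 bp or more with 1 kb either side of a listed start, or of a span end where none is listed; the region was the span plus 10 kb either side. Motifs were searched on both strands. No test over samples was possible, so counts and medians stand beside those of all genes. The members and lists were chosen with earlier results of these data known. Every member may be named; full values go to Foxj1, Hydin, and in each role group the 3 members of highest start fold and the 2 of most peaks, and each member without a start peak is named. Of other lists, the 3 highest and up to 3 without a peak are named, and further genes were named after their values were seen. Scripts, tested on simulated data, used Python 3.11.15, pandas 2.3.3, numpy 2.4.6, scipy 1.17.1 and matplotlib 3.10.9.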

Additional observations from a re-analysis of the deposited data

How the results depend on the processing

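The share of members with a start peak stayed above that of all genes under every alternative definition of the peak or the start. These were windows of 500 and 2500 bp, the summit in the window, stricter peak lists, either span end, and those added after seeing the data. Beside genes of the same length it did not hold in the longest decile, with 14 of 22 members against 89.4%. The number of members with a start peak ran from 39, when peaks that reach another gene were dropped (56.5%, against 50.5% of all genes), to 59 with 2500 bp. The median start fold stayed between 8.52 and 10.7. Values in the regions moved more. Coverage fell from 3.88% to 2.70% without flanks and to 2.52% with peaks of a fold of 4.24 or more (the upper quartile). Peaks per member rose from 5 to 7 with flanks of 25 kb, where all genes also had 7, and became 2 with peaks above the median −log10 q (2 for all genes) or of that fold or more (1 for all genes). The median highest fold rose from 10.5 to 11.8 with flanks of 25 kb and became 7.83 (7.10 for all genes) when peaks reaching another gene were dropped, an alternative added after seeing the data. These follow from the larger or smaller set of peaks or bases counted. No paired analysis was possible because 1 peak list serves all 3 replicates, and for the same reason no replicate could be left out.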
